A study of Homo sapiens with 6 samples.

Results

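The genes described are 7 known p53 targets whose proteins are secreted, sit at the cell surface or act in the secretory and endocytic system: GDF15, TGFA, SULF2, SERPINB5, CD82, PLXNB2 and STEAP3. They were followed in HCT116, an established human colorectal carcinoma line given as HCT116 +/+ in the titles, on Affymetrix Human Exon 1.0 ST arrays. The 3 groups had 2 arrays each: cells given Nutlin-3 (Nutlin 3R in the sample labels), cells given 5-fluorouracil (5FU), and control cells, whose treatment is none in the labels and DMSO in the design text. RNA was taken after 12 h, at doses that the labels leave out. They do not say either whether replicates were separate cultures, so a p-value here measures only the spread between these arrays, which may be technical. A probe set was assigned to a gene where that gene's symbol was its only one in the platform annotation, which gave the 7 genes 102 of 357604 such probe sets. All 7 were among the 17841 genes that passed a filter on low signal, and 95 of their 102 probe sets passed it themselves.

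p53 is a transcription factor that MDM2 normally holds at a low level, and Nutlin-3 occupies the pocket of MDM2 that binds p53 and so frees p53. 5FU is a pyrimidine analogue whose metabolites inhibit thymidylate synthase and enter RNA and DNA, which activates p53 through damage and nucleolar stress. Beside its targets in cell-cycle arrest and apoptosis, p53 activates genes whose products act outside the cell, on growth factor signalling, the extracellular matrix, adhesion and vesicle traffic. The 7 genes were chosen by measured values of these arrays together with their known roles. Which values decided for each gene is not recorded, so all log2 differences between the groups are treated as used. Those of Nutlin-3 and of 5FU from control, and that of Nutlin-3 from 5FU, which is the one minus the other, are given as descriptions with their errors and without p-values. Calls among the 7 genes are counted only to stand beside the share of all genes called.

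In these bulk samples, fewer cells of a type and less RNA per cell cannot be told apart. Values are log2 levels as the authors deposited them, averaged over a gene's probe sets on each array. Levels of different genes are not compared, since each probe set has its own brightness. CDKN1A, which encodes the cell-cycle inhibitor p21, was 4.27-fold higher after Nutlin-3 (limma adjusted p = 0.00308) and 3.43-fold higher after 5FU (limma adjusted p = 0.00751) than in control. MDM2 was 3.63-fold (limma adjusted p = 0.0099) and 2.96-fold (limma adjusted p = 0.0283) higher. For 5FU, CDKN1A and MDM2 lost their calls without either control or either 5FU array, and for Nutlin-3 MDM2 lost it without control replicate 1. Of 10 epithelial markers all 10 passed the filter, led by the keratin KRT8 with a mean level of 11.25, while CEACAM5 averaged 4.16 over all its probe sets, below the filter value of 4.73 for a single probe set. The linear levels of these 10 summed to 6349.0 and 6403.2 on the Nutlin-3 arrays and to 6443.8 and 6480.3 on the 5FU arrays, against 5967.6 and 6043.0 on the control arrays. These sums, which weigh the genes with the brightest probe sets most, did not overlap between groups. With either drug 0 of the 10 markers were called, and their part in the results was not tested. The linear levels of 9 fibroblast markers summed to 391.5 and 422.7 on the Nutlin-3 arrays and to 390.2 and 427.8 on the 5FU arrays, against 373.4 and 419.3 on the control arrays, and those of 8 blood and endothelial markers to 226.5 and 266.4, 220.9 and 240.1, and 225.5 and 248.3; the sums of these 2 lists overlapped between groups.

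GDF15 encodes a secreted cytokine of the TGF-beta superfamily that circulates as a stress signal and acts through the receptor GFRAL with its partner RET. Its level was 11.00 and 11.08 on the Nutlin-3 arrays and 10.85 and 10.94 on the 5FU arrays, against 8.76 and 8.67 on the control arrays. All 4 drug arrays lay far above both controls, and the replicates of each group lay close together. The means were 11.04 ± 0.05 with Nutlin-3, 10.90 ± 0.06 with 5FU and 8.72 ± 0.06 in control (SD, n = 2 each), a log2 difference from control of 2.32 (SE 0.13, 5.01-fold) after Nutlin-3 and 2.18 (SE 0.13, 4.53-fold) after 5FU. The 8 probe sets of GDF15 behaved alike. Each was more than 2-fold above control with both drugs, by 2.07 to 2.98 on the log2 scale after Nutlin-3 and by 1.77 to 2.78 after 5FU.

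The sequence around the start of GDF15 is shown because all probe sets of this gene stood over 2-fold above control with both drugs. RefSeq promoters of assembly GRCh38.p14, 250 bases before to 50 after the start, were searched for the p53 half-site consensus, which reads the same on both strands, allowing 1 mismatch outside its central core of 4 bases. GDF15 holds 1 such match, from position 29 to 38 counted from 1 at the start, at chr19:18386186-18386195 on the plus strand. The 10 bases that follow also fit the core of the consensus, and both together make a run of 2 half-sites with no spacer and 3 mismatches. Such a run is present in 0.427% of 35116 promoters in the table, and a single half-site with at most 1 mismatch in 32.6%. The last 30 bases of the window, chr19:18386178-18386207, are printed with the half-site match in capitals.
GDF15: acctgcacAGCCATGCCCgggcaagaactc

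TGFA encodes transforming growth factor alpha, a ligand of the epidermal growth factor receptor that is made as a membrane protein and released by ADAM17. It had levels of 8.13 and 8.30 after Nutlin-3 and of 8.73 and 8.88 after 5FU, against 7.83 and 7.54 in control. No 2 groups overlapped: the 5FU arrays were highest, the Nutlin-3 arrays in between and the controls lowest. The means were 8.22 ± 0.12 with Nutlin-3, 8.81 ± 0.11 with 5FU and 7.69 ± 0.20 in control (SD, n = 2 each). The log2 difference from control was 0.53 (SE 0.16, 1.45-fold) for Nutlin-3 and 1.12 (SE 0.16, 2.17-fold) for 5FU. All 15 probe sets of TGFA had a positive difference with each drug, up to 0.85 after Nutlin-3 and up to 1.83 after 5FU. Of the 15, 1 had a control mean below the filter and entered through its drug values, 2558642, with differences of 0.69 and 1.79. After Nutlin-3, 10 of the 15 stood above control with no overlap, where 16.8% of all used probe sets did so (18.4% stood below), and after 5FU 14 of the 15, where 19.3% did so (19.3% below). In 10 of the 15 the groups stood in the order 5FU, Nutlin-3, control with no overlap, an order found in 1.64% of all used probe sets.

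SULF2 encodes an extracellular endosulfatase that removes 6-O-sulfate groups from heparan sulfate chains and so alters their binding of growth factors. Its levels were 8.20 and 8.46 after Nutlin-3 and 7.70 and 7.81 after 5FU, against 6.44 and 6.45 in control. The 3 groups did not overlap, with Nutlin-3 highest and control lowest. The means were 8.33 ± 0.18 with Nutlin-3, 7.76 ± 0.08 with 5FU and 6.45 ± 0.01 in control (SD, n = 2 each). SULF2 was 1.88 above control on the log2 scale after Nutlin-3 (SE 0.14, 3.69-fold) and 1.31 above it after 5FU (SE 0.14, 2.48-fold).

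The 28 used probe sets of SULF2 did not all follow the gene mean. After Nutlin-3, 23 were at least 2-fold above control, with a median difference of 2.07 and a highest of 3.14. Of the 28, 2 had a control mean below the filter and entered through their drug values: 3908361, at 2.79 above control after Nutlin-3, and 3908388, at 2.62. Probe sets 3908375, 3908436 and 3908437 differed from control by 0.27, 0.07 and 0.02 after Nutlin-3, with overlapping groups, and by 0.03, -0.31 and -0.33 after 5FU. Where in the transcript these 3 lie was not determined, as the annotation used gives a gene for each probe set and no position.

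SERPINB5 encodes maspin, a serpin that does not inhibit proteases and has been found inside cells, at their surface and secreted. Its levels were 8.24 and 8.84 after Nutlin-3 and 8.55 and 9.03 after 5FU, against 6.36 and 6.14 in control. Both drugs overlapped each other and lay well above control, and the drug replicates differed from each other by more than for any of the other 6 genes. The means were 8.54 ± 0.43 with Nutlin-3, 8.79 ± 0.34 with 5FU and 6.25 ± 0.15 in control (SD, n = 2 each). The log2 difference from control was 2.29 (SE 0.25, 4.89-fold) for Nutlin-3 and 2.54 (SE 0.25, 5.81-fold) for 5FU, and its 12 used probe sets ranged from 0.22 to 3.76 after Nutlin-3 and from 0.50 to 4.32 after 5FU. Probe set 3791810 was the lowest in both ranges and 3791793 the highest in both. Of the 12, 2 had a control mean below the filter and entered through their drug values. With all 15 probe sets of SERPINB5 the log2 differences were 2.09 and 2.37.

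The upstream sequence of SERPINB5 is shown because it held the most matches to the p53 half-site consensus among the 7 genes. With at most 1 mismatch outside the core there were 3, at positions -243 to -234, -197 to -188 and -125 to -116 from the start. None of them adjoins another. The 250 bases before the start, chr18:63476708-63476957 on the plus strand of GRCh38.p14, are printed with the matches in capitals.
SERPINB5: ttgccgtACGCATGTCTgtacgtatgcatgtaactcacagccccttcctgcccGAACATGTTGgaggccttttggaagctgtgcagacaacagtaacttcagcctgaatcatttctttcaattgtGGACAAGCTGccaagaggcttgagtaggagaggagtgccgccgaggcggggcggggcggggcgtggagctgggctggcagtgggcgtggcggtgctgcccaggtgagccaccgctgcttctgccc

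The other 5 genes gave few matches in these windows. TGFA has 2 listed starts, and the window of one of them holds 1 half-site match, while PLXNB2 holds 1 at positions -105 to -96. The windows of CD82 and STEAP3 and the 4 listed for SULF2 hold 0, and no exact half-site is present in any window of the 7 genes, against 6.63% of all promoters with one. A match is a string of letters in this window and not a site of binding, and p53 can act from outside such a window.

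CD82 encodes a tetraspanin, a membrane protein that organises integrins and receptors in the plasma membrane and is known as a suppressor of metastasis. It had levels of 8.63 and 8.69 after Nutlin-3 and of 8.31 and 8.37 after 5FU, against 7.20 and 7.40 in control. As for SULF2, the 3 groups were separate and Nutlin-3 was highest. The means were 8.66 ± 0.04 with Nutlin-3, 8.34 ± 0.04 with 5FU and 7.30 ± 0.14 in control (SD, n = 2 each), a log2 difference from control of 1.36 (SE 0.14, 2.57-fold) for Nutlin-3 and 1.04 (SE 0.14, 2.06-fold) for 5FU. Among its 12 probe sets the difference after Nutlin-3 reached 2.37, in probe set 3328536, which was also the highest after 5FU at 2.03. Probe set 3328521 differed by 0.03 after Nutlin-3 and by -0.26 after 5FU, and 3328556 by 0.34 and 0.19.

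PLXNB2 encodes plexin-B2, a transmembrane receptor for class 4 semaphorins that is also known as a receptor for angiogenin. Its levels were 10.14 and 10.13 after Nutlin-3 and 9.91 and 9.83 after 5FU, against 9.60 and 9.76 in control. The groups did not overlap, but the 5FU arrays stood close above the higher control. The means were 10.14 ± 0.01 with Nutlin-3, 9.87 ± 0.06 with 5FU and 9.68 ± 0.11 in control (SD, n = 2 each), and the log2 difference from control was 0.46 (SE 0.13, 1.37-fold) for Nutlin-3 and 0.19 (SE 0.13, 1.14-fold) for 5FU. Only 5 probe sets carry PLXNB2 as their single symbol, and all 5 had positive differences with both drugs.

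STEAP3 encodes a metalloreductase of endosomes that reduces iron taken up with transferrin, and it is also known as TSAP6, a protein linked to exosome release. It had levels of 8.25 and 8.29 after Nutlin-3 and of 7.71 and 7.64 after 5FU, against 8.11 and 7.83 in control. The Nutlin-3 arrays lay above both controls and the 5FU arrays below both, while the controls lay further apart than the replicates of either drug. The means were 8.27 ± 0.03 with Nutlin-3, 7.67 ± 0.05 with 5FU and 7.97 ± 0.20 in control (SD, n = 2 each), so that STEAP3 differed from control by 0.30 after Nutlin-3 and by -0.30 after 5FU on the log2 scale (SE 0.15 each). After Nutlin-3 all 15 used probe sets had a positive difference, and after 5FU 1 of the 15 did. Without overlap, 9 of the 15 lay above control after Nutlin-3, where 16.8% of all used probe sets did so, and 6 of the 15 below it after 5FU, where 19.3% did. In 5 of the 15 the groups stood in the order Nutlin-3, control, 5FU with no overlap, against 1.71% of all used probe sets.

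**Figure D1:**
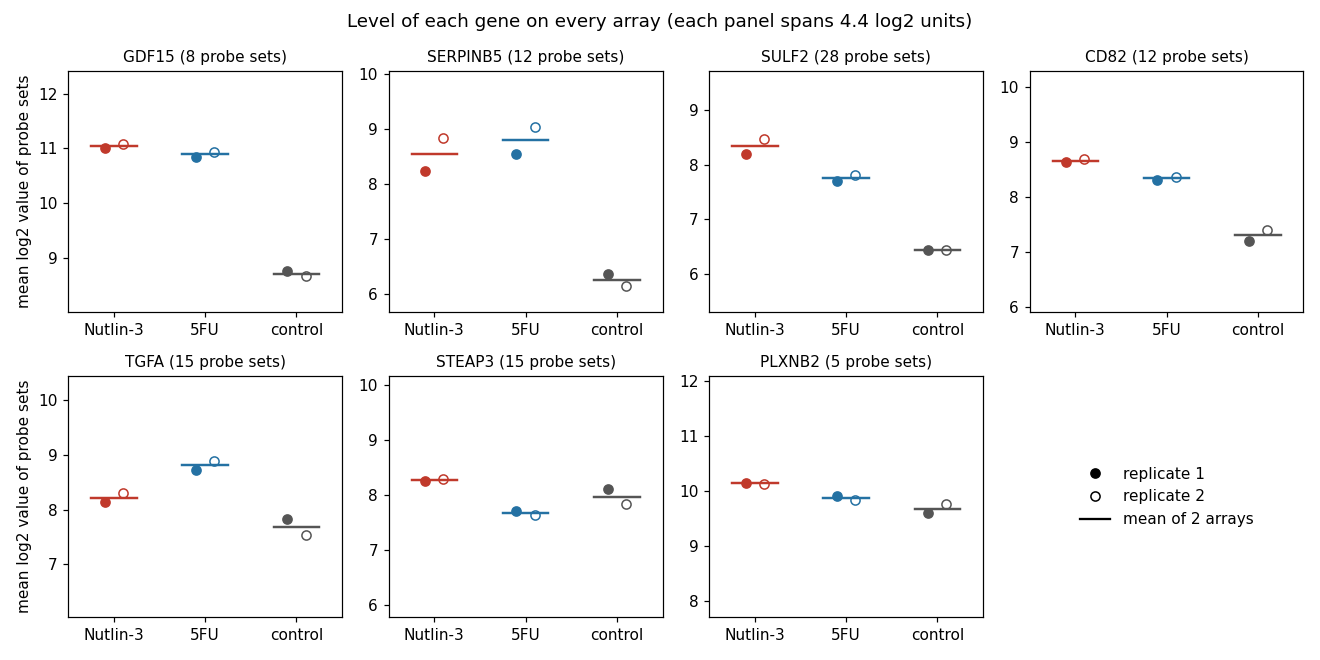
Mean log2 level of each of the 7 genes on every array; filled and open circles are replicates 1 and 2, lines are means of 2 arrays, and each panel spans the same range on the vertical axis. GDF15, SERPINB5, SULF2 and CD82 stand well above control with both drugs, TGFA is highest after 5FU, PLXNB2 differs little, and STEAP3 lies above control after Nutlin-3 and below it after 5FU.

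In the fit over all genes, 4 of the 7 passed an adjusted p of 0.05 for Nutlin-3 against control (GDF15, SERPINB5, SULF2 and CD82), where 1.22% of the 17841 genes were called. For 5FU against control these 4 and TGFA passed, 5 of 7, where 0.448% of genes were called. The genes were chosen with these differences in view, so nothing is read from the counts. In the same fit 0.858% of all genes were called lower after Nutlin-3 and 0.118% after 5FU, and 0 of the 7. In none of the 7 did the arrays of a drug overlap those of control. Over all genes, 16.2% lay wholly above control and 18% wholly below it after Nutlin-3, and 20% above and 18% below after 5FU. Some or all of the calls among the 7 genes were lost when certain single arrays were left out, where fewer arrays were fitted. The differences of the called genes kept their sign. For 5FU they ran from 2.14 to 2.22 for GDF15, 2.3 to 2.78 for SERPINB5 and 1.25 to 1.37 for SULF2. Those of CD82 ran from 0.94 to 1.14 and those of TGFA from 0.98 to 1.26. With only the arrays of 5FU and control, 3 of the 7 were called for 5FU, while no difference moved. TGFA and CD82 lost their calls for 5FU in that fit, and leaving out either Nutlin-3 array gave the same fit for this comparison. They also lost them without either control or either 5FU array.

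The drugs were then set against each other, again as a description. Of the 7 genes, 0 were called by limma for Nutlin-3 against 5FU, where 0.633% of genes were called (0.0617% higher and 0.572% lower with Nutlin-3). STEAP3 was higher with Nutlin-3 by 0.60 on the log2 scale (95% interval of the fit 0.25 to 0.94, 1.51-fold). SULF2 was higher with Nutlin-3 by 0.57 (0.23 to 0.91, 1.49-fold). TGFA was lower with Nutlin-3, with a difference of -0.59 (-0.96 to -0.22, 1.5-fold). In each of these genes both Nutlin-3 arrays lay on the same side of both 5FU arrays, which was so for 20.8% of all genes in the direction of STEAP3 and SULF2 and for 25.2% in that of TGFA.

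The remaining 4 genes had smaller differences between the drugs. CD82 differed by 0.32 (95% interval of the fit -0.00061 to 0.64) and PLXNB2 by 0.26 (-0.05 to 0.57), both with the Nutlin-3 arrays above the 5FU arrays. GDF15 differed by 0.14 (-0.16 to 0.45). SERPINB5 differed by -0.25 (-0.83 to 0.33), the widest interval of the 7, with overlapping groups.

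**Figure D2:**
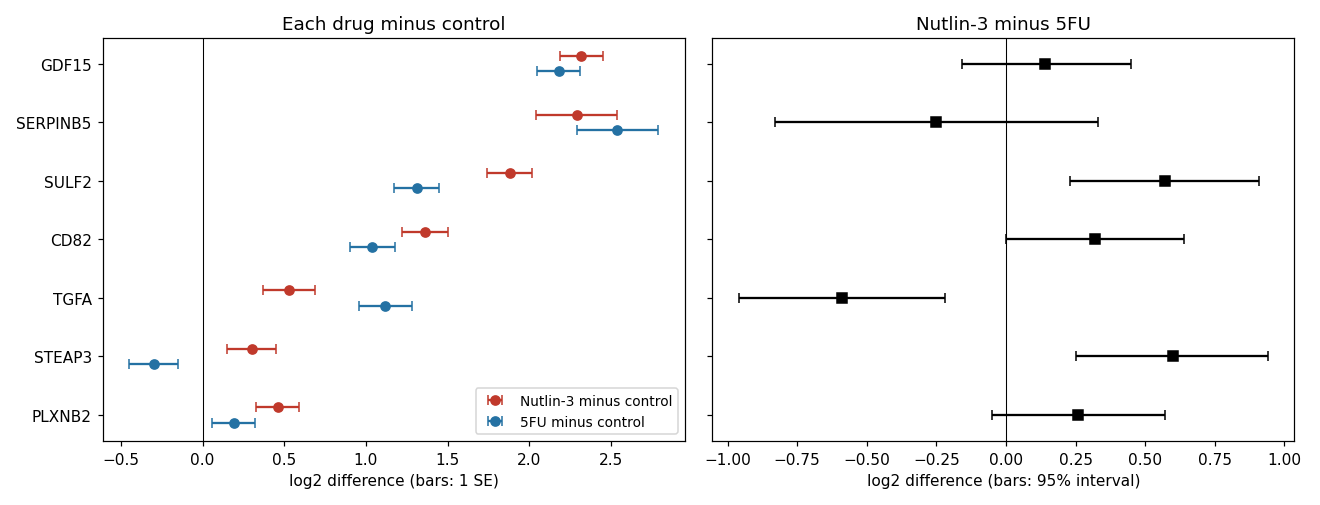
Left, log2 difference of each drug from control for the 7 genes, with bars of 1 SE; right, log2 difference of Nutlin-3 minus 5FU with 95% intervals, both from the fit over all genes. In the right panel TGFA lies furthest to the left of 0, with SULF2 and STEAP3 furthest to the right. The intervals are not adjusted over genes and the genes were chosen on these arrays, so they are descriptions. Of the 7 genes, 0 were called between the drugs.

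The probe sets of SULF2, TGFA and STEAP3 mostly shared the direction of their gene between the drugs, as did those of CD82 and PLXNB2. For SULF2, 21 of 28 probe sets were higher on both Nutlin-3 arrays than on both 5FU arrays, and for STEAP3 13 of 15. For CD82 8 of 12 were higher and 1 was lower, and for PLXNB2 4 of 5 were higher, against 20.3% of all used probe sets. The order Nutlin-3, 5FU, control with no overlap held in 18 of 28 probe sets of SULF2, 8 of 12 of CD82 and 4 of 5 of PLXNB2. In GDF15 it held in 3 of 8, against 1.58% of all used probe sets. For TGFA, 14 of 15 were lower with Nutlin-3, against 22.5%. The remaining TGFA probe set, 2558710, differed by 0.14, while 2558646 showed the widest gap between the drugs at -1.61. In STEAP3 the difference ran from 0.10 in probe set 2502783 to 1.08 in 2502787. Probe sets of 1 gene read the same RNA and are not replicates. Of 269135 used probe sets, limma called 0 between the drugs and likewise 0 when either drug was compared with control. The rises of single probe sets over control given above are thus descriptions too. An unadjusted limma p below 0.05 was found for 27392 between the drugs, 22755 after Nutlin-3 and 22210 after 5FU.

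**Figure D3:**
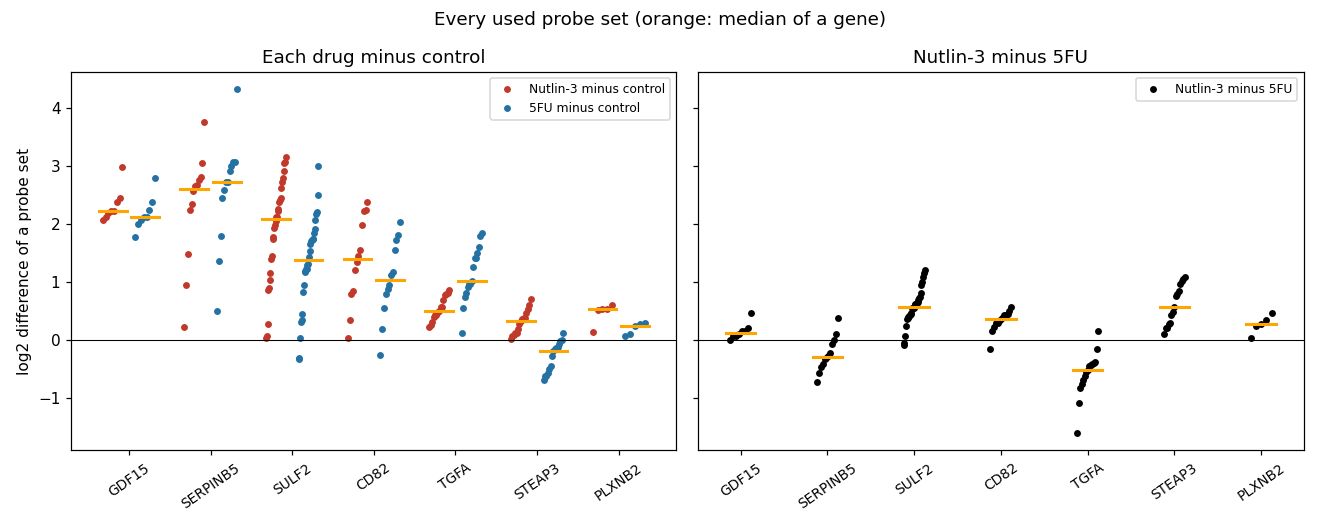
Log2 difference of every used probe set of the 7 genes, each drug minus control on the left and Nutlin-3 minus 5FU on the right; orange lines are medians over a gene's probe sets. GDF15 probe sets lie close together, those of SULF2, SERPINB5 and CD82 spread from near 0 to over 2, and in the right panel nearly all TGFA probe sets lie below 0 and all STEAP3 probe sets above it.

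Other p53 targets that are secreted or lie at the cell surface gave the setting for these genes. Of 40 measured, 6 were called higher after Nutlin-3, where 0.359% of all genes were, and 7 after 5FU, where 0.331% were. With either drug 0 were called lower, against 0.858% and 0.118% of all genes. Without overlap, 30 lay above control and 2 below it after Nutlin-3, and 27 above and 3 below after 5FU. Over all genes these shares were 16.2% and 18% after Nutlin-3 and 20% and 18% after 5FU. The median log2 difference of the 40 was 0.46 for Nutlin-3 and 0.50 for 5FU, against 0.001 over all genes in each case, and both comparisons share the same 2 control arrays. The list was written with earlier results of these arrays known and is not independent evidence of its direction. Of the list, 0 genes kept their call for Nutlin-3 when a control or a Nutlin-3 array was left out, and 0 for 5FU when a control or a 5FU array was left out. Without either 5FU array, or with only the arrays of Nutlin-3 and control, 2 were called for Nutlin-3 (FAS and TLR3). With the median of a gene's probe sets in place of their mean, 2 were called for Nutlin-3 (TLR3 and TNFRSF10B) and 1 for 5FU (TLR3).

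Several of the genes called higher encode death receptors or their decoys. FAS, the receptor of FAS ligand, was at 8.09 and 8.40 after Nutlin-3 and at 8.78 and 8.95 after 5FU, against 6.92 and 6.52 in control (2.89-fold, limma adjusted p = 0.0183, and 4.43-fold, limma adjusted p = 0.0197). FAS overlaps ACTA2 in the genome, and the probe sets of both may share signal. TNFRSF10B, the TRAIL receptor DR5, rose 1.91-fold after Nutlin-3 (limma adjusted p = 0.0338) and 2.12-fold after 5FU (limma adjusted p = 0.0388). Of the decoy TRAIL receptors, TNFRSF10C rose 1.86-fold after Nutlin-3 (limma adjusted p = 0.0296) and TNFRSF10D rose 2.18-fold after 5FU (limma adjusted p = 0.0283). Neither was called between the drugs, so a call for a single drug is not a difference between them.

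The remaining calls included receptors, a channel and a growth factor. TLR3, an endosomal receptor of double-stranded RNA, rose 3.10-fold after Nutlin-3 (limma adjusted p = 0.0258) and 4.46-fold after 5FU (limma adjusted p = 0.0260). The potassium channel KCNN4 rose 1.79-fold after Nutlin-3 (limma adjusted p = 0.0386), as did INKA2, an intracellular inhibitor of the kinase PAK4 that is not a surface protein (1.97-fold, limma adjusted p = 0.0225). After 5FU the ephrin receptor EPHA2 rose 2.16-fold (limma adjusted p = 0.0389) and the membrane protein SUSD6 2.95-fold (limma adjusted p = 0.0295). None of KCNN4, INKA2, EPHA2 and SUSD6 was called between the drugs, where HBEGF alone of the list was. The myelin protein gene PMP22 had the lowest difference of the 40 after Nutlin-3, at -0.63 (limma adjusted p = 0.0897).

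**Figure D4:**
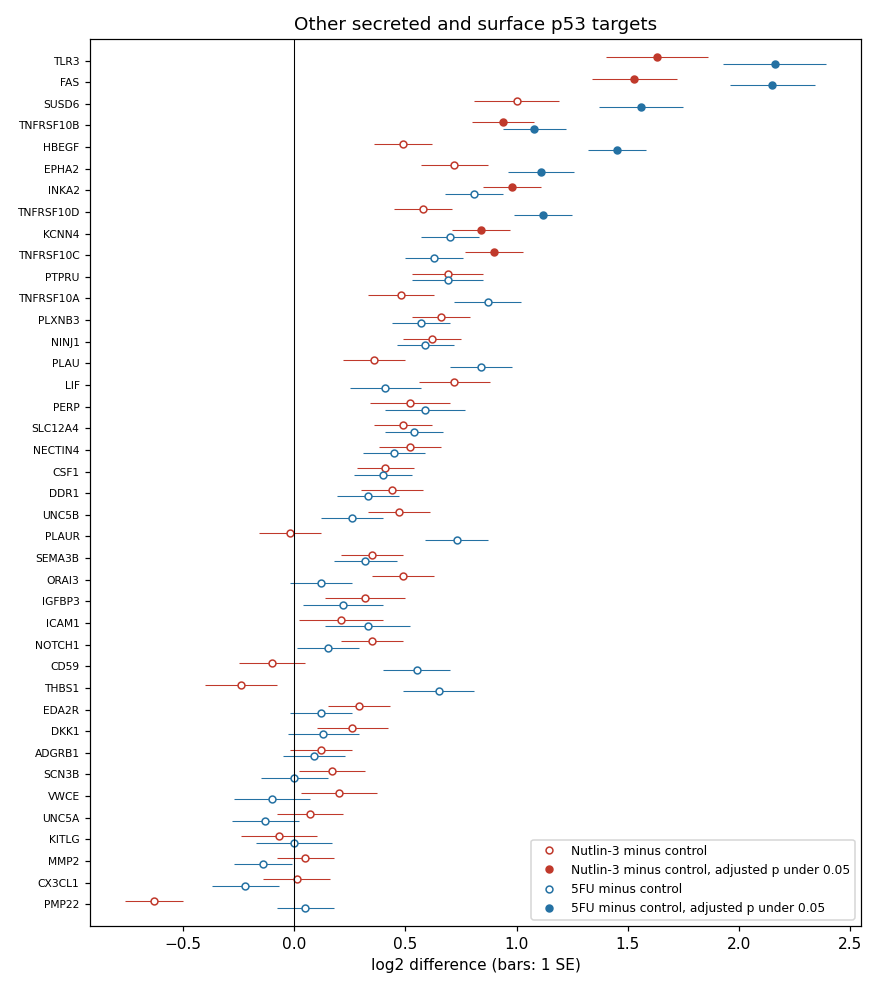
Log2 difference from control after Nutlin-3 and after 5FU for the 40 other secreted and surface p53 targets measured, with bars of 1 SE; filled points passed an adjusted p of 0.05 in the fit over all genes. TLR3 and FAS lie furthest to the right, HBEGF is further from 0 after 5FU than after Nutlin-3, and 35 of the 40 lie above 0 with each drug.

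The partners of TGFA in epidermal growth factor receptor signalling were looked at in a list of 14 measured ligands, receptors, sheddases and feedback genes. HBEGF, a second ligand of the receptor that is also a p53 target, was the 1 gene of the list called. It was at 7.59 and 7.58 after Nutlin-3 and at 8.48 and 8.62 after 5FU, against 7.17 and 7.03 in control, so that, as for TGFA, the 5FU arrays were highest and the groups did not overlap. It rose 2.73-fold after 5FU (limma adjusted p = 0.0225) and was lower with Nutlin-3 than with 5FU by 1.95-fold (log2 difference -0.96, limma adjusted p = 0.0417), while after Nutlin-3 it stood 0.49 above control (limma adjusted p = 0.219). The drug difference of HBEGF lost its call without either Nutlin-3 or either 5FU array. It also lost it without either control array, which for this comparison is the same fit as with the arrays of both drugs alone. The median of the 14 genes was 0.04 for Nutlin-3 and -0.07 for 5FU; ADAM17 differed from control by 0.46 after 5FU (limma adjusted p = 0.533) and its partner RHBDF2 was 0.82 higher with Nutlin-3 than with 5FU (limma adjusted p = 0.0519).

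In the families and pathways of the other 6 genes 1 gene was called. Over all genes 1.22% were called for Nutlin-3, 0.448% for 5FU and 0.633% between the drugs. At those shares lists of this size would hold few calls, so nothing is read from counts of 0. Among 33 TGF-beta family ligands, receptors and processing enzymes, the GDF15 receptor GFRAL and its partner RET included, 0 were called in any of the 3 comparisons, with medians of 0.01 for Nutlin-3 and -0.01 for 5FU. Among 33 heparan sulfate enzymes and core proteins, the cell-surface proteoglycan SDC4 rose 2.15-fold after 5FU (limma adjusted p = 0.0295), a call lost without either control or either 5FU array, and was 0.70 above control after Nutlin-3 (limma adjusted p = 0.0728). The glypican GPC1 was 0.75 higher with Nutlin-3 than with 5FU (limma adjusted p = 0.0714). Of 30 other tetraspanins 0 were called, the largest difference being that of TSPAN1, 0.75 after Nutlin-3 (limma adjusted p = 0.303) and 1.03 after 5FU (limma adjusted p = 0.175).

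Among the relatives of SERPINB5, PLXNB2 and STEAP3 the count was 0, from which again nothing is read beside the shares of all genes called. Of 8 other clade B serpins measured 0 were called, and SERPINB1, an inhibitor of neutrophil proteases, had differences of 0.34 after Nutlin-3 (limma adjusted p = 0.816) and 0.66 after 5FU (limma adjusted p = 0.470). Of 34 plexins, semaphorins and related genes 0 were called, with a positive mean difference in 28 of 34 after Nutlin-3 and in 21 of 34 after 5FU. Without overlap, 12 were higher and 1 was lower after Nutlin-3 (16.2% and 18% of all genes), and 8 were higher and 4 lower after 5FU (20% and 18% of all genes). SEMA7A, a membrane-anchored semaphorin, was 0.91 above control after 5FU (limma adjusted p = 0.0552). Of 24 genes of iron handling 0 were called, and the transferrin receptor TFRC stood at -0.41 against control after Nutlin-3 (limma adjusted p = 0.610) and at -0.90 after 5FU (limma adjusted p = 0.176). At an unadjusted p below 0.05 limma found 1821 of 17841 genes for Nutlin-3, 1915 for 5FU and 2377 between the drugs.

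Genes with the most similar profile were sought by Pearson correlation over the 6 arrays, among 1757 genes that ranged over at least 1 log2 unit. The arrays fall into 3 groups, so a correlation over these 6 points is given as a description. An r above 0.95 was found for 40 candidates with GDF15, 62 with SERPINB5, 26 with SULF2, 27 with CD82 and 66 with TGFA. The closest to GDF15 were CDKN1A (r = 0.9948) and the antiproliferative gene BTG2 (r = 0.9941). ACER2, an alkaline ceramidase (r = 0.9967), and TNFRSF10B (r = 0.9955) were closest to SERPINB5, and AHNAK2 (r = 0.9969) and the adhesion receptor ADGRG1 (r = 0.9941) to SULF2. For CD82 they were the smooth muscle actin gene ACTA2 (r = 0.9933) and the phosphatase PTPRE (r = 0.9929), and for TGFA the peptidase ERAP2 (r = 0.9933) and LSMEM1 (r = 0.9929).

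STEAP3 and PLXNB2 had 1 candidate each above an r of 0.95, but each ranged over less than the 1 log2 unit that candidates needed. Genes with similarly small ranges were thus left out of the search, which can lower the count. The closest to STEAP3 were the sialyltransferase ST6GAL1 (r = 0.9554) and the cystine transporter SLC7A11 (r = 0.9394), and both had their highest mean after Nutlin-3 and their lowest after 5FU. SLC7A11 averaged 7.97 with Nutlin-3 and 6.37 with 5FU, against 7.5 in control. The closest to PLXNB2 were NADSYN1 (r = 0.9839) and the cytokine gene IL1A (r = 0.9473). Among the 7 genes themselves the correlation over the 6 arrays was 0.92 to 0.99 between any 2 of GDF15, SERPINB5, SULF2 and CD82. It was close to this for PLXNB2 with SULF2 and with CD82 (0.91 each) and for TGFA with SERPINB5 (0.89), and -0.42 between TGFA and STEAP3. The genes were chosen on differences between these same arrays, so nothing is read from these correlations.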

How the data were processed

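The authors deposited 1 log2 value for each probe set and array, and the submitters' processing notes name RMA, without a version or settings; no genome build is given in the labels. The table covers 1411399 probe sets, 0 of them with a missing value, and the medians of the arrays ran from 4.73 to 4.78. No depth is attached to such values, and precision is limited by the 2 arrays per group. Symbols came from the platform annotation, with 2966 of 19560 updated through RefSeq synonyms. A gene's value was the mean of its probe sets with a mean above 4.73, the median over all probe sets, with at least 2 such probe sets. All 6 arrays entered 1 model across genes in limma 3.58.1 (lmFit and eBayes, R 4.3.3), with Benjamini-Hochberg adjustment over 17841 genes and a threshold of 0.05. The same fit was run over 269135 single probe sets. Alternatives changed the probe sets used, the summary, the centring, the variance model, the block and the arrays.

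The 7 genes, the lists, the tests and the alternatives were chosen with earlier results of these data known. Of each list the called genes were named, and otherwise genes among the 2 highest or 2 lowest differences of a comparison; GFRAL and RET were named for their role. INKA2 stood in the list of surface targets although it is intracellular. Promoters came from RefSeq (GRCh38.p14), and all 7 genes matched. Same-numbered arrays deviated together between the drugs (correlation 0.63) and in opposite ways between Nutlin-3 and control (-0.56) and between 5FU and control (-0.52), so the numbers did not pair the arrays of all 3 groups in 1 way, and with 2 arrays a group no block was set in the model.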

Additional observations from a re-analysis of the deposited data

Results flagged for a closer look

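STEAP3 drew attention because its 2 Nutlin-3 arrays lay above both controls and its 2 5FU arrays below both. The drugs differed by 0.60 on the log2 scale, which limma did not call in the fit over all genes. This difference is a description only, because the gene was chosen on these arrays.

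HBEGF drew attention because it was called when the drugs were set directly against each other, at -0.96 for Nutlin-3 minus 5FU (limma adjusted p = 0.0417). The call was kept under 6 of the alternatives, among them a crossed pairing of the arrays that was added after seeing the data. It was lost under 9, while the difference ran from -1.08 to -0.89.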

How the results depend on the processing

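Over the single-gene results, 460 values under the alternatives kept their direction and side of the threshold, 164 kept the direction but lost the call, 5 gained a call and 1 reversed. The 460 include many values of results that were not called in the main fit and had no call to lose. All 5 gains came with the crossed pairing given at the end of this paragraph. The value that reversed was SERPINB5 between the drugs, at 0.055 without Nutlin-3 replicate 1 (range -0.552 to 0.055 with 1 array left out). The causes were not tested. For Nutlin-3 against control, 217 genes were called, 380 with upper-quartile probe sets alone and 381 with centred arrays. For 5FU against control, 80 were called, 151 with upper-quartile probe sets, 177 with centred arrays and 39 with the median of a gene's probe sets. Between the drugs, 113 were called, 69 with all probe sets, 69 with the median, 234 with upper-quartile probe sets and 297 with centred arrays. With 1 array left out the counts ran from 5 to 149, from 1 to 63 and from 3 to 104, fewer samples being fitted. Of the 7 genes, 4 were called for Nutlin-3 (1 to 4 with 1 array left out), 5 for 5FU (0 to 3, 3 with the median and 3 with only the arrays of both groups) and 0 between the drugs (0 in each case). With the replicate number as a block across all 3 groups, 2, 1 and 0 genes were called, and 0 of the 7 in each comparison. The crossed pairing, added after seeing the data, gave 1788, 1882 and 2821 genes, and 6, 5 and 3 of the 7.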
